A study of Homo sapiens with 38 samples.

Results

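Naive human embryonic stem cells of the line Shef6 were moved for 4 days into 1 of 2 media on Geltrex, and the libraries compared here are the 2 of E8 and the 2 of N2B27 at day 4 of the first experiment, 4 of the 38 libraries of the series. The rule for them uses the labels of medium, day and experiment and no expression value. All 4 started from the same cells, Shef6 kept naive in PXGL on a serum coating and plated on Geltrex, a basement membrane extract, straight into the new medium. A ROCK inhibitor, which helps dissociated cells to survive, was present in both media on the day of plating and left out from day 1. PXGL holds the naive state with inhibitors of MEK, of tankyrase and of protein kinase C together with LIF, and all of these were withdrawn in both media. N2B27 is a basal medium with the N2 and B27 supplements and no added growth factor. E8 is a defined medium that carries FGF2 and a ligand of the TGFβ family and is used to keep human pluripotent cells in the primed state. The comparison therefore asks which RNAs differed when cells left the naive state with, or without, those factors, but the media also differ in their basal components and in most of their supplements. One line was used, and the parallel libraries of a group are called technical replicates in some legends of the study and biological replicates in another, so that the p-values below measure only the spread between libraries of 1 experiment.

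Nodal, Activin and TGFβ bind paired serine/threonine kinase receptors and act through SMAD2 and SMAD3, which FOXH1 and other factors bring to their target genes. LEFTY1 and LEFTY2 are secreted antagonists of Nodal and are themselves targets of the pathway, so that they form a feedback loop. In the embryo, Nodal and WNT together start the primitive streak, which is marked by TBXT, MIXL1 and EOMES. Human pluripotent cells depend on the same pathway to keep NANOG, and those leaving the naive state pass through a formative stage before they resemble the later epiblast.

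The 4 libraries were alike in depth. Totals ran from 4794336 to 5612354 counts, 24453 to 24759 genes had at least 1 count, between 2.55% and 3.12% of the counts were RNAs of the mitochondrial genome and 7.94% to 9.86% were those of ribosomal proteins. Pearson's r of log2 CPM across genes, which are not independent replicates, was 0.984 between the E8 libraries and 0.986 between the N2B27 libraries, and each library lay nearest to its partner. Levels are in CPM, the count of a gene set against the composition-corrected total of its library, and 3 counts, taken as the lowest countable level, correspond to 0.520 to 0.627 CPM in these libraries. The label was checked against markers of pluripotent cells, which were abundant in both media. The summed level of POU5F1, SOX2, NANOG, SALL4 and LIN28A was 2710 to 2770 CPM in E8 and 2590 to 2710 CPM in N2B27.

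E8 and N2B27 differed in a small share of the genes. Of 16674 genes tested, 415 (2.49%) were called, which means a Benjamini-Hochberg adjusted p under 0.05 in edgeR's quasi-likelihood test together with a change of more than 1 on the log2 scale. Of these, 227 (1.36%) were higher in E8 and 188 (1.13%) were lower, and over all tested genes the median log2 fold change was 0.00. The libraries of the 2 media did not overlap in any of the 415, so that a lack of overlap adds no support to a call. Most of the called genes were scarce, as were most genes tested, of which 7310 reached 20 CPM. Of the called genes 308 were under 20 CPM in both media, against 63 that rose and 44 that fell above that level. Among the genes above it, the falls in E8 were led by LEFTY2, SP5, MIXL1 and TBXT, and the rises included ESRG and other noncoding RNAs. Unless days are named, a rise or a fall is a difference between media at the same day and not a change over time. Both E8 libraries were at or under 3 counts for 10 of the called genes and both N2B27 libraries for 17, and no fold is given for these. In RNA from whole cultures, fewer cells that express a gene and less of its RNA per cell cannot be told apart. The count fell to 196 without replicate 1 of E8, to 272 without replicate 1 of N2B27, to 223 without replicate 2 of N2B27 and to 333 without replicate 2 of E8.

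**Figure D1:**
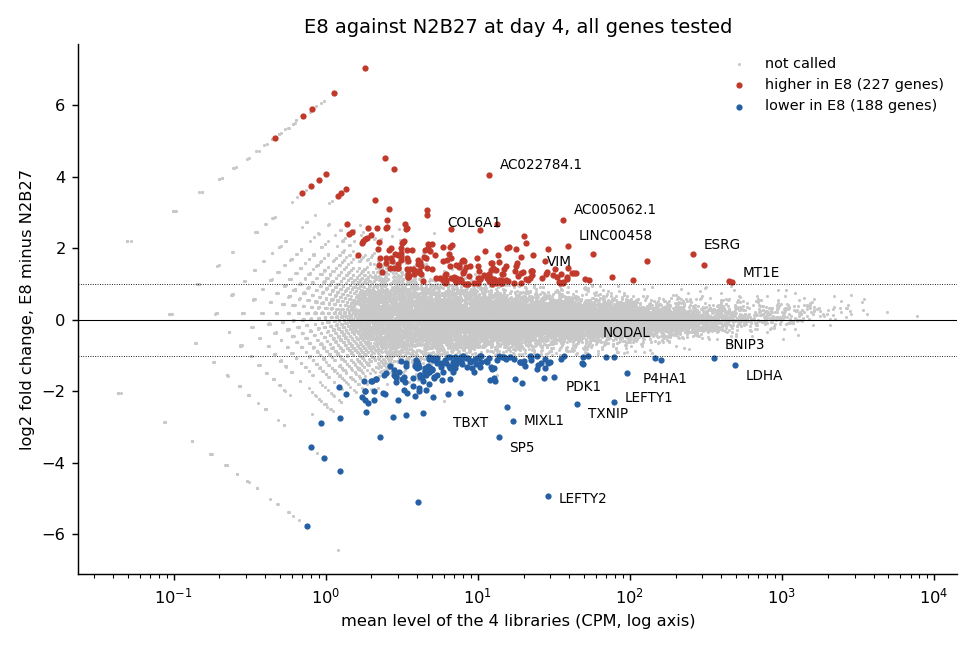
Each point is 1 of the 16674 genes tested, with the mean level of the 4 libraries in CPM on a log axis against the log2 fold change of E8 over N2B27 at day 4. Red points are the 227 genes called higher and blue points the 188 called lower in E8, grey points were not called, dotted lines mark changes of 1 on the log2 scale, and LEFTY2 lies farthest below the line among the abundant genes.

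The choice of N2B27 libraries mattered for part of the result and is therefore given first. N2B27 at day 4 was repeated in a second experiment, which held no E8, so that experiment and medium cannot be told apart when E8 is set against it. With those 2 libraries as the reference, 217 genes were called (1.30%), of which 153 were higher and 64 lower in E8. Both comparisons use the same E8 libraries. Of the 227 genes higher in E8 in the first comparison, 79 were also higher here, and of the 188 lower genes 30 were also lower, with none in the opposite direction. This reference was added after the data were seen. Values against the second experiment are given below for many of the genes whose call they end or turn.

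The secreted antagonists LEFTY1 and LEFTY2 were the genes of the Nodal pathway that fell past both thresholds. LEFTY2 stood at 1.25 and 2.37 CPM in the 2 E8 libraries and at 52.5 and 59.3 CPM in the 2 N2B27 libraries. The groups did not overlap, and the fall was -4.92 on the log2 scale (SE 0.37, adjusted p = 6.62e-11). LEFTY1 stood at 27.2 and 26.0 CPM in E8 against 131 and 129 CPM in N2B27, a fall of -2.29 (SE 0.19, adjusted p = 1.00e-09). Both genes were also above E8 in N2B27 of the second experiment, LEFTY2 at 40.9 and 47.1 CPM and LEFTY1 at 82.3 and 88.7 CPM. The 2 antagonists are close relatives that lie beside each other on chromosome 1 (hg38, GENCODE 44, LEFTY1 at chr1:225886282-225911382 and LEFTY2 at chr1:225936598-225941383, both on the minus strand), so the counting of reads near their 3′ ends may have moved some reads from one to the other.

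The ligand itself moved less. NODAL was at 89.0 and 105 CPM in E8 and at 168 and 181 CPM in N2B27, without overlap, and its log2 fold change of -0.85 (SE 0.16, adjusted p = 0.000968) passed the adjusted p but not the fold threshold. The second-experiment N2B27 libraries were at 171.4 and 171 CPM. Other parts of the pathway were close to equal. TDGF1, the coreceptor, had a log2 fold change of 0.21, GDF3, a related ligand, of -0.12, and FOXH1 of 0.15, and none passed the adjusted p. The receptor gene ACVR1B (-0.84, adjusted p = 0.00942) and SMAD3 (-0.65, adjusted p = 0.00969) were lower in E8 by less than the fold threshold. Of the 20 tested genes of the Nodal pathway list, 2 were called lower, against 1.13% of all genes, and none higher. Their median was -0.11 against 0.00 for all genes.

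Genes that the TGFβ family is known to induce did not move as 1 group. SMAD7, the inhibitory SMAD, was at 31.3 and 30.6 CPM in E8 and at 44.4 and 42.3 CPM in N2B27 (log2 fold change -0.49, adjusted p = 0.0183). TAGLN, an actin-binding protein, had a log2 fold change of 0.80 and CTGF, a matricellular protein, one of 0.59. COL1A1, the α1 chain of type I collagen, was the 1 gene of the 17 tested that was called higher (1.263, adjusted p = 1.17e-05), and BHLHE40, a transcriptional repressor, the 1 called lower. The call of BHLHE40, at 3.76 and 4.73 CPM in E8 and 9.53 and 10.8 CPM in N2B27 (-1.25, adjusted p = 0.00577), was lost without replicate 1 of E8, without replicate 2 of N2B27 and with the second-experiment reference (-0.98, adjusted p = 0.0746). With that reference CTGF passed both thresholds (1.125, adjusted p = 0.000364).

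Of the 15 tested genes of the primitive streak list 5 were called lower in E8. SP5, a transcription factor and WNT target, stood at 2.51 and 2.56 CPM in E8 and at 24.1 and 25.6 CPM in N2B27. Its log2 fold change was -3.28 (SE 0.36, adjusted p = 1.92e-07). MIXL1, a homeobox factor of the streak, stood at 3.97 and 4.34 CPM against 28.4 and 31.2 CPM, and fell by 2.83 (SE 0.27, adjusted p = 1.32e-08). In neither gene did the media overlap. TBXT, the T-box factor that marks the streak, stood at 3.97 and 5.72 CPM against 27.4 and 25.6 CPM and fell by 2.44 (SE 0.27, adjusted p = 3.65e-07). EOMES, the related T-box factor, was scarce, with 0 and 0.79 CPM in E8 against 4.85 and 3.40 CPM in N2B27, and since both E8 libraries were close to the limit of 3 counts its call (adjusted p = 0.000795) carries a direction rather than a size. In the 6 naive libraries TBXT was at 0 to 0.54 CPM, SP5 at 0.28 to 3.06 CPM and MIXL1 at 2.39 to 20.2 CPM. Both E8 libraries were thus above the naive range in TBXT and within it in SP5 and MIXL1.

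None of the 15 was called higher, the LEFTY genes are not among them, and 13 had a negative log2 fold change, with a median of -1.02 against 0.00 for all genes, of which 1.13% were called lower. HAS2 (0.22) and CDX1 (0.25) had positive values that did not pass. The fifth was FZD8, a WNT receptor, with 2.92 and 3.55 CPM against 6.59 and 7.35 CPM. Its call (-1.09, adjusted p = 0.0323) was lost with DESeq2, with no filter on low counts and when any 1 of the 4 libraries was left out, with values between -0.97 and -1.24, and against second-experiment N2B27 it had -0.93 (adjusted p = 0.152). GSC, a homeobox gene of the organizer, had a log2 fold change of -2.02 that did not pass (adjusted p = 0.0775). Against N2B27 of the second experiment 4 members were called lower, and MIXL1 was at 13.3 and 15.2 CPM, SP5 at 11.5 and 22.6 CPM and TBXT at 16.9 and 21.9 CPM there, all above E8. The 4 markers of mesoderm or streak (TBXT, MIXL1, EOMES and MESP1) summed to 8.56 to 11 CPM in E8 and 60.2 to 60.7 CPM in N2B27, and MESP1 was at 0 in both N2B27 libraries.

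**Figure D2:**
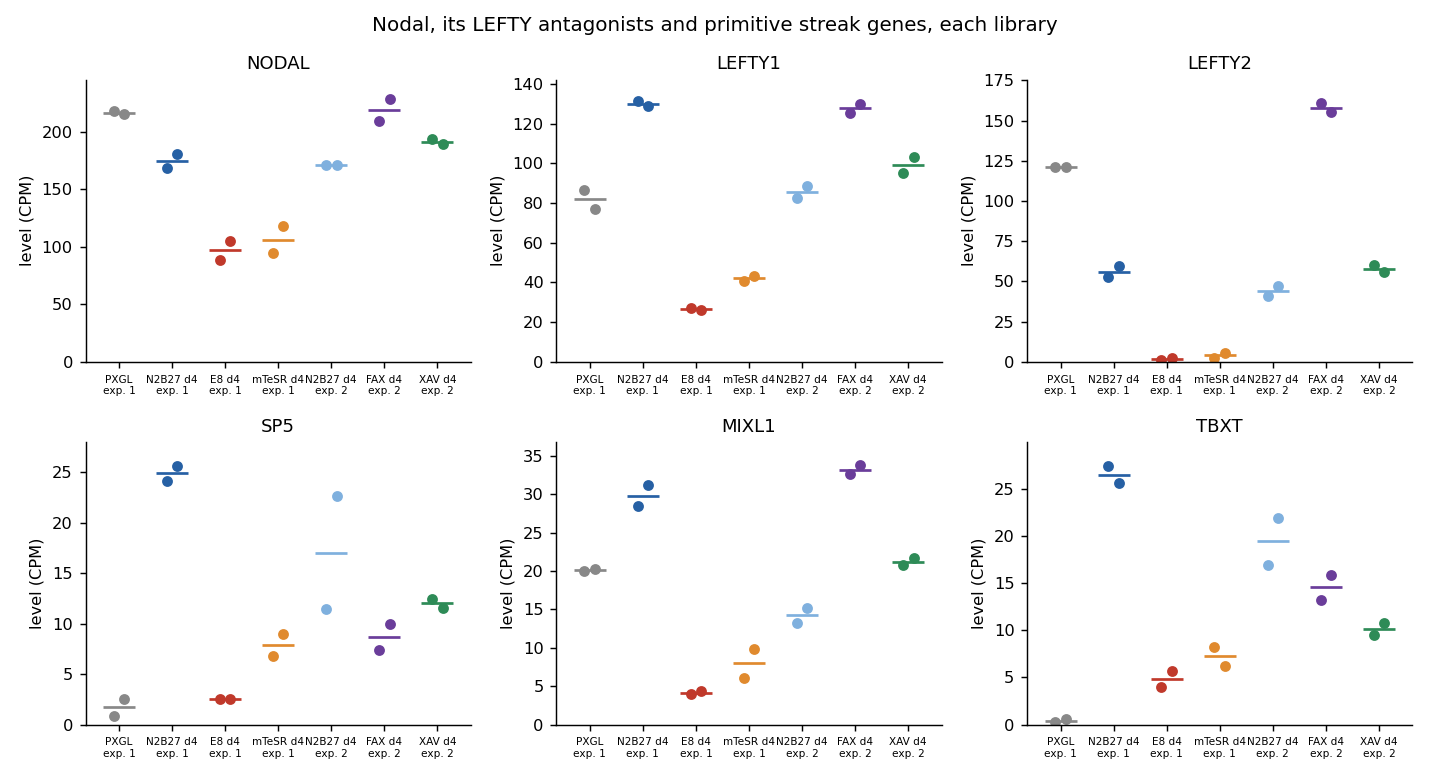
Points are single libraries and bars the group mean, in CPM on a linear axis, for 6 genes in naive cells on Geltrex (PXGL) and in the media at day 4 (XAV is N2B27 with a tankyrase inhibitor alone, FAX and mTeSR are described further on), with the experiment given under each group. In all 6 genes both E8 libraries (red) lie below both first-experiment N2B27 libraries (dark blue) and both second-experiment N2B27 libraries (light blue).

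LEFTY1, LEFTY2 and MIXL1 lie within 341 kb of each other on chromosome 1 (chr1:225886282-226227060). SP5 is on chromosome 2, TBXT on chromosome 6 and EOMES on chromosome 3. The bases before the start sites of SP5 and MIXL1 are printed here (RefSeq, GRCh38.p14). They were chosen because, of the 5 called streak genes, they alone hold the 2 sites marked. Capitals mark the letters TGTGGATT, which are AATCCACA on the other strand and are the site known for FOXH1, and CTTTGAT, the site known for the TCF/LEF factors of the WNT pathway. The first stretch is chr2:170715087-170715336 and the second is chr1:226223414-226223617, both on the plus strand and both ending where the gene begins in GENCODE 44.
SP5: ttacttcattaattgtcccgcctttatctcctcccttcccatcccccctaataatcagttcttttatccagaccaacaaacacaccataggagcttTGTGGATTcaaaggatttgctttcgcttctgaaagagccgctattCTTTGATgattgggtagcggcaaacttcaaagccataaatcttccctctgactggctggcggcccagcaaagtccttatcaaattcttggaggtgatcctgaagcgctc
MIXL1: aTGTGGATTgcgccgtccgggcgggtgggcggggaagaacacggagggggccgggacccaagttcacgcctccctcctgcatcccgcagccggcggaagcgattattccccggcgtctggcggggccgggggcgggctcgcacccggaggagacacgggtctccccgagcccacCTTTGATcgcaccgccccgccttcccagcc

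Each of the 2 genes holds 1 copy of both sites. On either strand and within 250 bases before to 50 bases after a start site, the letters AATCCACA are in 0.684% of the 10818 tested genes that have such a window, and CTTTGAT in 2.14%. TBXT, EOMES and FZD8 hold neither in their windows. Of the 9 tested streak genes with a window 3 hold AATCCACA, of which 2 were called, and 2 hold CTTTGAT, both called. The letters GTCTAGAC, a palindrome bound by SMAD proteins, and AGGTGTGA, part of a T-box site, were searched in the same way and were in none of the 5 called streak genes. A match is a run of letters and was not tested as a bound site.

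Some genes of glucose metabolism and of the response to low oxygen, 4 of the tested members of each list, were called lower in E8, and none was called higher. When oxygen is scarce, the factor HIF raises transport and breakdown of glucose, turns pyruvate away from the mitochondria and induces mitophagy and collagen hydroxylation. PDK1, the kinase that shuts pyruvate dehydrogenase, stood at 16.7 and 15.2 CPM in E8 and at 47.1 and 48.7 CPM in N2B27 (log2 fold change -1.59, SE 0.20, adjusted p = 2.97e-06). P4HA1, a collagen prolyl hydroxylase, stood at 99.2 and 102 CPM against 217.5 and 219 CPM (-1.12, SE 0.10, adjusted p = 1.11e-09). BNIP3, a mitophagy receptor, stood at 228 and 234 CPM against 459 and 502 CPM (-1.06, SE 0.13, adjusted p = 1.09e-06). In all 3 genes, as in every gene called, the libraries of the 2 media did not overlap. The fourth called member of this list was DDIT4, an inhibitor of mTORC1 (-1.02, adjusted p = 0.00059), and it and BNIP3 lay so close to the fold threshold that leaving out 1 library, replicate 2 of N2B27 for both and also replicate 1 of E8 for DDIT4, ended the call with values between -0.91 and -0.98.

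LDHA, which makes lactate, stood at 267 and 309 CPM in E8 against 678 and 714 CPM in N2B27 (-1.27, SE 0.17, adjusted p = 1.03e-05). SLC16A3, the exporter of lactate, stood at 8.77 and 9.07 CPM against 27.7 and 33.0 CPM (-1.76, SE 0.27, adjusted p = 6.01e-05). ALDOC, an aldolase, fell by 1.28 and PFKFB4, a regulator of phosphofructokinase at 1.67 and 3.16 CPM in E8, fell by 2.09. The sign was shared by most genes of these pathways. Of the 23 tested genes of glucose metabolism 21 had a negative log2 fold change, 4 were called lower (ALDOC, LDHA, PFKFB4 and TXNIP) and 8 more passed the adjusted p alone, among them SLC2A3 (-0.58), HK2 (-0.91), PGK1 (-0.67) and PFKFB3 (-0.87). Their median was -0.46. Over all 16674 genes 8312 were negative, 1.13% were called lower and the median was 0.00. GAPDH (0.12), ENO1 (-0.10) and PKM (-0.10), among the most abundant members, did not pass. Of the 18 tested low-oxygen genes 4 were called lower and 15 were negative, with a median of -0.66, while VEGFA (0.13), ADM (0.24) and NDRG1 (0.53) had positive values that did not pass.

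TXNIP differs from these genes in its known role. It binds thioredoxin and holds back glucose uptake, and its RNA rises with glucose. TXNIP stood at 13.2 and 16.6 CPM in E8 and at 72.6 and 78.7 CPM in N2B27, without overlap, and fell by 2.34 (SE 0.17, adjusted p = 4.41e-11), the fifth largest fall among the genes above 20 CPM. Its relative ARRDC4 was at 1.25 and 0.79 CPM in E8 and at 1.73 and 0.90 CPM in N2B27 and did not pass.

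Several of these genes were at levels close to those of E8 in N2B27 of the second experiment. PDK1 was at 16.9 and 18.1 CPM there, P4HA1 at 82.3 and 87.3 CPM, BNIP3 at 253 and 309 CPM, LDHA at 359 and 381 CPM, SLC16A3 at 8.34 and 9.99 CPM and TXNIP at 20.1 and 20.2 CPM. For all 6 genes these levels were below both N2B27 libraries of the first experiment. Naive cells on Geltrex of the second experiment were higher, with LDHA at 766 and 797 CPM and P4HA1 at 224 and 184 CPM. Over the 6 naive libraries PDK1 was at 14.8 to 29.0 CPM, BNIP3 at 126 to 331, SLC16A3 at 6.86 to 19.1 and TXNIP at 7.53 to 35.2 CPM. These ranges held both E8 libraries and lay below first-experiment N2B27. Those of LDHA (265 to 797 CPM) and P4HA1 (101 to 224 CPM) reached as high as first-experiment N2B27. With the second-experiment reference the log2 fold change of P4HA1 was 0.25 and that of PDK1 -0.14, none of the glucose genes was called, 1 low-oxygen gene was (DDIT4, -1.08, adjusted p = 0.000573), and the medians were -0.18 and -0.08. ALDOC still passed the adjusted p there (-0.96, adjusted p = 0.00694), and PFKFB4 had -1.43 (adjusted p = 0.053). Oxygen, glucose and cell density are not given per library in the labels, and their part in the difference was not tested.

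**Figure D3:**
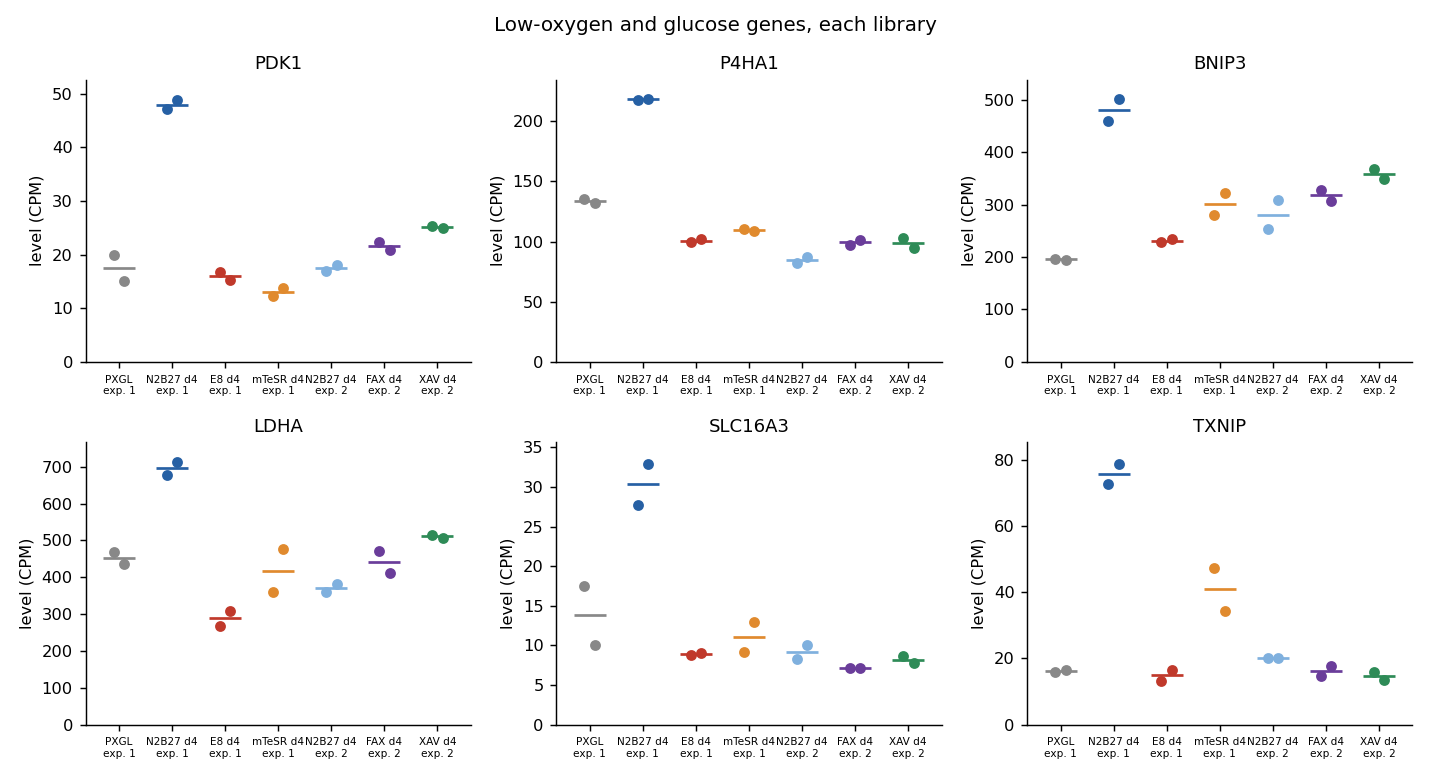
Points are single libraries and bars the group mean, in CPM on a linear axis, for 6 genes of the low-oxygen response and of glucose use in naive cells of the first experiment on Geltrex (PXGL) and in the media at day 4. In all 6 panels both first-experiment N2B27 libraries (dark blue) lie above every other library plotted, naive cells of the second experiment not being among them, and E8 (red) lies near or below second-experiment N2B27 (light blue) except in P4HA1, where E8 is the higher of both.

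The core of the site that HIF binds is ACGTG, or CACGT on the other strand, and stretches of 30 bases with it are printed in capitals for 4 of the genes (RefSeq, GRCh38.p14) to show where in the windows these letters lie. The stretches are chr2:172556069-172556098 for PDK1 and chr11:18394476-18394505 for LDHA on the plus strand, and chr10:131982040-131982069 for BNIP3 and chr10:73096936-73096965 for P4HA1 on the minus strand. PDK1 and LDHA each have a pair of windows, at different start sites, of which 1 holds no copy. For PDK1 the window without a copy is the one at the start given by GENCODE 44, and the copies printed lie downstream of that start, just before the RefSeq start of the other window. The 6 letters CACGTG read the same on both strands and hold 2 overlapping copies.
PDK1: ccgcCACGTccctCACGTaccactcggcag
LDHA: CACGTGggttcccgCACGTccgccggcccc
BNIP3: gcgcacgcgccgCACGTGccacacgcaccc
P4HA1: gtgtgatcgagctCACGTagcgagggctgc

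The core is common, and 32% of the 10818 tested genes with a window hold it in at least 1 window. All 4 called low-oxygen genes hold it, as do 10 of the 15 tested members of that list with a window (66.7%). Among the glucose genes 14 of 22 hold it (63.6%). Of the 9 tested streak genes with a window none does.

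Other genes among the 15 largest falls above 20 CPM belonged to none of these groups. PRIM1, the small subunit of the DNA primase, stood at 45.1 and 54.4 CPM in E8 and at 146 and 136 CPM in N2B27 and fell by 1.499. QPCT, which cyclizes the ends of peptides, fell by 1.66, POLR3GL, a subunit of RNA polymerase III, by 1.37 and NRN1, the neuronal protein neuritin, by 1.35. Adjusted p ran from 9.35e-06 (QPCT) to 0.000206 (NRN1). None of the 4 was called against second-experiment N2B27, where PRIM1 was at 75.0 and 75.2 CPM and NRN1 at 15.6 and 18.6 CPM.

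The 15 largest rises above 20 CPM held several noncoding RNAs, whose share among all genes tested was not determined. ESRG, a noncoding RNA of retroviral origin known from human pluripotent cells (chr3:54632122-54639857), was the most abundant, with 411 and 399.9 CPM in E8 and 126 and 103 CPM in N2B27. It rose by 1.83 (SE 0.11, adjusted p = 2.06e-12). LINC00458 stood at 66 and 60.7 CPM against 14.2 and 15.9 CPM and rose by 2.07 (SE 0.16, adjusted p = 1.15e-10). LINC01356, MIR205HG, LINC00937, AC022784.1, AC005062.1, AC092490.1 and AL117378.1, noncoding RNAs or clone-named loci of no role stated here, completed those among the 15 largest rises above 20 CPM, with log2 fold changes between 1.76 (LINC00937) and 4.05 (AC022784.1). AC022784.1 stood at 21.7 and 22.9 CPM in E8 and at 1.73 and 0.90 CPM in N2B27. ESRG, LINC00458 and AC022784.1 were called with the second-experiment reference too, at 1.78, 1.74 and 3.38, and there ESRG was at 115 and 120.3 CPM. HPAT5, a further noncoding RNA of pluripotent cells chosen after its values were seen, stood at 63.9 and 58.4 CPM against 25.1 and 23.8 CPM (1.32, adjusted p = 1.13e-06), and with the second-experiment reference it had 0.82 (adjusted p = 0.00159), under the fold threshold.

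The protein-coding genes among the 15 largest rises were FAM9C, COL6A1, MX1 and VIM. VIM, the intermediate filament protein vimentin, which rises as human cells leave the naive state, stood at 35.1 and 36.3 CPM in E8 and at 9.53 and 10.75 CPM in N2B27 (1.81, SE 0.25, adjusted p = 1.24e-05). In N2B27 of the second experiment VIM was at 22.4 and 20.2 CPM, and the value against it was 0.74 (adjusted p = 0.0746). COL6A1, a chain of type VI collagen, stood at 25.9 and 31.0 CPM against 6.41 and 7.88 CPM and rose by 1.99 (SE 0.23, adjusted p = 7.92e-07). MX1, an interferon-induced GTPase, stood at 50.3 and 42.4 CPM against 12.3 and 11.1 CPM and rose by 1.98 (SE 0.20, adjusted p = 4.84e-08). Neither gene overlapped between the media, and both were called with the second-experiment reference, COL6A1 at 1.68 and MX1 at 1.21. In naive cells on Geltrex of the first experiment MX1 was at 52.3 and 53.8 CPM, so that E8 was near the starting level and N2B27 below it. The list also held RNA5-8SN2, a ribosomal RNA copy, and MTCO1P40, a copy of a mitochondrial gene, whose reads cannot be assigned to 1 locus with certainty. Both lost the call when single libraries were left out, RNA5-8SN2 without replicate 1 of E8 (2.27, adjusted p = 0.0935) or either replicate of N2B27 (2.65 and 2.13), and MTCO1P40 without either replicate of N2B27 (1.88 and 1.77). Neither was called with the second-experiment reference (1.042 and 1.21).

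Matrix genes were divided. Of the 23 tested members of the matrix list 2 were called higher, COL6A1 and TNC, against 1.36% of all genes, and the median was -0.05. TNC, the matrix glycoprotein tenascin C, stood at 5.85 and 5.13 CPM against 1.39 and 1.43 CPM and rose by 1.94 (adjusted p = 0.0029), against 1.45 (adjusted p = 0.0503) with the second-experiment reference. THBS1, a thrombospondin chosen after its values were seen, rose by 1.31, and with that reference it had 0.74 (adjusted p = 0.0396). The 2 chains of type I collagen had opposite signs. COL1A1 stood at 31.1 and 32.7 CPM in E8 and at 14.4 and 12.2 CPM in N2B27, while COL1A2 stood at 37.2 and 46.0 CPM and at 83.2 and 79.9 CPM, a log2 fold change of -0.97 (adjusted p = 1.41e-05) just short of the fold threshold.

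Genes of retinoid handling also went both ways. CYP26A1, the enzyme that degrades retinoic acid, stood at 1.67 and 1.18 CPM in E8 against 6.07 and 6.63 CPM in N2B27 and fell by 2.14 (adjusted p = 0.00104). The media did not overlap, and CYP26A1 was lower in E8 than in second-experiment N2B27 as well (-2.39). In all, 2 of the 15 tested genes of this list were called higher and 2 lower, against 1.36% and 1.13% of all genes, with a median of 0.09. STRA6, called higher, is a retinol transporter at 6.47 and 3.55 CPM in E8 and 2.25 and 1.43 CPM in N2B27, whose call (1.42, adjusted p = 0.0366) was lost with no filter on low counts, and without replicate 1 of E8 or either replicate of N2B27, with values between 0.93 and 1.80, and with the second-experiment reference (1.00, adjusted p = 0.24).

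Metallothioneins, which bind zinc and copper and are induced by them, were higher in E8 by a modest factor. MT1E stood at 652 and 616 CPM against 299 and 310.5 CPM and was the 1 member called (1.06, SE 0.12, adjusted p = 4.14e-07). A further 8 of the 12 tested genes of the list passed the adjusted p below the fold threshold, as did 907 of the 16674 genes, among them MT1G (0.83) and MT2A (0.93), and the median was 0.73. The list also holds zinc transporters and the factor MTF1, and the transporter SLC30A1 (0.71) was 1 of the 8. The metallothioneins are near-identical copies in 1 cluster, so that reads may be divided among them. In second-experiment N2B27 MT1E was at 450.2 and 490.0 CPM, and the median of the list against that reference was 0.17 with no gene called.

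The 13 protein-coding RNAs of the mitochondrial genome all had positive log2 fold changes, of 0.07 to 0.85 with a median of 0.36. None was called, and 5 passed the adjusted p, among them MT-ND1 (0.75, adjusted p = 0.00115) and MT-ATP6 (0.67, adjusted p = 0.000984). Since these RNAs share 1 genome and 1 promoter system they are not independent of each other. Their median against second-experiment N2B27 was 0.16.

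With first-experiment N2B27 as the reference, the only genes called among those that define the pluripotent states were of the formative and primed list. Of 10 core pluripotency genes none was called and the median was -0.07. NANOG stood at 899 and 994 CPM in E8 and 1124 and 1138 CPM in N2B27 (-0.26, adjusted p = 0.134), POU5F1 at 629 and 604 CPM against 412 and 465 CPM (0.49, adjusted p = 0.325). SOX2, at 363 and 353 CPM against 237.5 and 229 CPM, passed the adjusted p with 0.62. Of 22 naive genes none was called, 17 were negative and the median was -0.22, and against second-experiment N2B27 1 was called lower, 19 were negative and the median was -0.36. KLF17, a naive transcription factor, stood at 57.2 and 57.4 CPM in E8 and at 61.0 and 57.7 CPM in N2B27, and the groups differed by less than the spread between the N2B27 libraries. KLF4 (0.73, adjusted p = 0.00647) was higher in E8, by less than the fold threshold. NLRP7 (-0.44, adjusted p = 0.00628) and the surface marker SUSD2 (-0.58, adjusted p = 0.0167) were lower, also by less than that threshold.

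Of 20 tested formative and primed genes, 2 were called higher in E8 and 1 lower, against 1.36% and 1.13% of all genes. The higher ones were VIM and NEFM, a neurofilament chain (7.31 and 8.87 CPM against 1.73 and 2.87 CPM, 1.81, adjusted p = 0.0008), and the call of NEFM too was lost against second-experiment N2B27 (0.56, adjusted p = 0.387). The lower one was ZIC2, a zinc finger factor of the formative epiblast, at 29.5 and 29.2 CPM against 65 and 71.3 CPM (-1.22, SE 0.15, adjusted p = 2.86e-06), and it remained lower against second-experiment N2B27 (-1.05). In naive cells on Geltrex ZIC2 was at 0.90 and 0.72 CPM, so that it was above the naive level in both media. SFRP2, a secreted WNT modulator (0.98, adjusted p = 4.29e-05), and SOX11, a neural and formative factor (0.69, adjusted p = 0.00075), were higher in E8 without reaching the fold threshold.

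Genes of the FGF/ERK pathway, which E8 feeds through FGF2, were not called. Of 22 tested members 17 were positive, the median was 0.15 and 1 passed the adjusted p. That 1 was DUSP6, the ERK phosphatase and classic ERK target, at 33.6 and 48.5 CPM in E8 and 70.4 and 70.2 CPM in N2B27 (-0.77, adjusted p = 0.00212), and its direction turned with the second-experiment reference (0.82, adjusted p = 0.00694). SPRY4, another ERK feedback gene, had 0.15 (adjusted p = 0.709). AXIN2, the feedback gene of WNT signalling, stood at 36.8 and 43.2 CPM against 42.8 and 41.6 CPM, with overlap. Of 16 tested WNT feedback genes 1 was called lower, against 1.13% of all genes. This was the ligand WNT5A at 0.84 and 4.14 CPM against 8.32 and 7.35 CPM (-1.62, adjusted p = 0.0109). The call was lost without replicate 1 of E8 (-0.91) or replicate 1 of N2B27 (-1.53), and the value moved to -3.18 without replicate 2 of E8. Against second-experiment N2B27 WNT5A was called lower too (-1.73, adjusted p = 0.0149).

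Markers of other cell types were low in both media. The 7 trophectoderm or amnion markers summed to 29.6 to 31.1 CPM in E8 and 30.8 to 32.9 CPM in N2B27, and most of this was GATA3 (22.8 and 21.1 against 24.4 and 23.8 CPM). The 5 hypoblast or endoderm markers summed to 5.32 to 5.85 CPM against 5.89 to 6.27 CPM. Of the 2 neural markers PAX6 was at 2.51 and 1.58 CPM against 6.41 and 6.09 CPM, and its lower call in E8 (-1.61, adjusted p = 0.00785) was lost without replicate 2 of E8 (-1.30) or replicate 1 of N2B27 (-1.57). Against second-experiment N2B27 PAX6 was called lower too (-2.27, adjusted p = 0.000364). Of the 10 tested genes of the longer neural list 1 was called in each direction, with a median of 0.05. The other was RAX, an eye field factor, higher in E8 at 1.46 and 1.58 CPM against 0 and 0.18 CPM (adjusted p = 0.0238), close to the limit of 3 counts, and its call was lost when any 1 of the 4 libraries was left out. Against second-experiment N2B27 RAX was called higher too (adjusted p = 0.028). IRX2, a homeobox factor, passed the adjusted p alone (0.61). None of the 23 markers was at 0 in all 4 libraries.

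**Figure D4:**
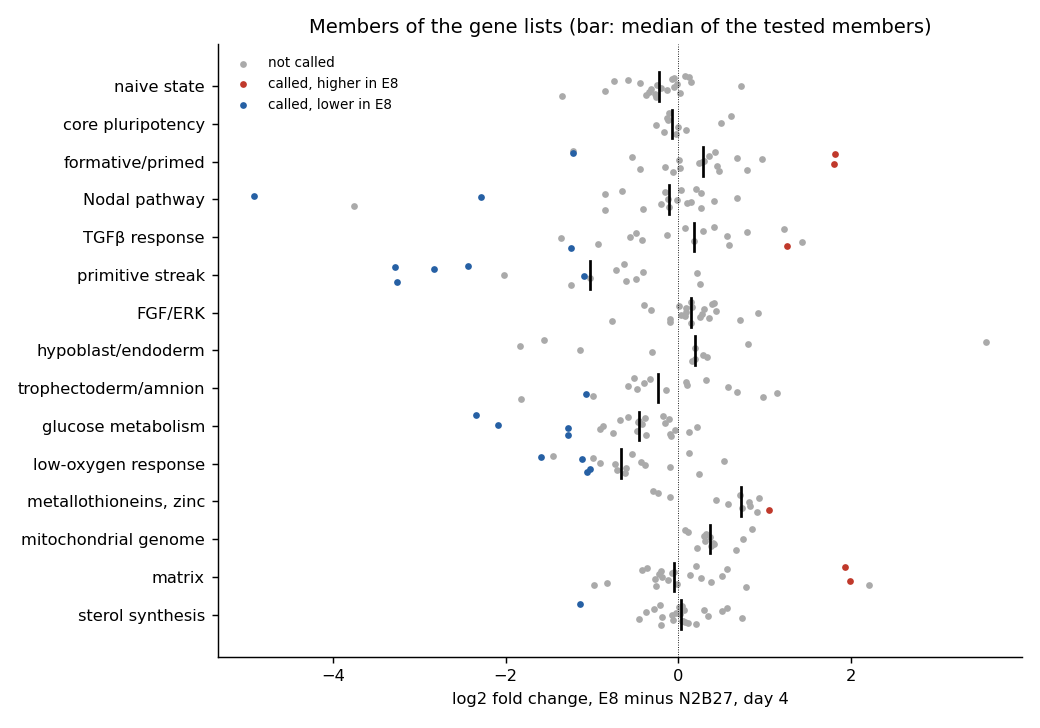
Each point is the log2 fold change of E8 over N2B27 at day 4 of 1 tested member of a gene list, and each bar the median of that list. The primitive streak, low-oxygen and glucose lists have medians of -1.02, -0.66 and -0.46, the metallothionein list one of 0.73, and the called genes (coloured) of the first 3 are all lower in E8.

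The day 4 difference was compared with that of the other days of the same experiment, which share no library with it. At day 3, 1.68% of the genes were called, and of the 415 genes of day 4 117 were called there in the same direction, which is 28.2% of the day 4 genes and 41.8% of the 280 genes of day 3. At day 6, 5.28% were called, and 190 genes were shared in direction, 45.8% of the 415 and 21.6% of 881. No gene was called in opposite directions on day 4 and on either of these days. At day 2, with 4.55% called, 89 genes were shared in direction (21.4% of the 415 and 11.7% of 758) and 2 were opposite. At day 8, with 7.29% called, 154 were shared (37.1% of the 415 and 12.7% of 1216) and 4 were opposite. The sign of the fold change was the same as at day 4 in 89.2% of the 415 genes for day 3 and in 94.9% for day 6, and in 78.1% for day 2 and 89.4% for day 8. The 415 were selected by a large day 4 difference, and the share over all genes was not determined. ESRG was higher in E8 on each of the other days, with log2 fold changes of 0.82 (day 2), 1.09 (day 3), 1.904 (day 6) and 2.14 (day 8). TXNIP was lower on all of them, by 0.76, 1.77, 2.63 and 1.84. Other genes did not pass on every day. LDHA had 0.04 at day 2 and 0.12 at day 8, BNIP3 had -0.01 at day 8, PDK1 had -0.20 at day 2 and VIM had -0.16 at day 8, and none of these values passed the adjusted p. MIXL1 had -1.90 at day 3 and -2.83 at day 6, at levels of 3.35 and 3.30 CPM in E8 against 10.6 and 14.2 CPM in N2B27 at day 3 and of 14.7 and 13.0 CPM against 91.9 and 105 CPM at day 6.

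Whether a difference itself changed between days was tested as an interaction. From day 3 to day 4 no gene was called by edgeR or by DESeq2, with 1374 and 905 genes at an unadjusted p under 0.05, but DESeq2 gave no adjusted p for 14870 of the genes. From day 4 to day 6 the difference changed for 30 genes (0.180%), 14 upwards and 16 downwards, of which 7 were among the 415. Leaving out 1 library of day 4 left 11 to 21 genes, and no filter on low counts gave 100. LEFTY2 and LEFTY1 were among the 14. In E8, LEFTY2 went from 1.25 and 2.37 CPM at day 4 to 14.3 and 15.02 CPM at day 6, while in N2B27 it went from 52.5 and 59.3 CPM to 34.0 and 32.4 CPM. LEFTY1 reached 94.4 and 102 CPM in E8 at day 6, against 124 and 113 CPM in N2B27. The change of the difference was 3.74 (SE 0.51, adjusted p = 0.000205) for LEFTY2 and 2.02 (SE 0.26, adjusted p = 0.000137) for LEFTY1, and at day 8 the differences left were -0.58 and 0.12, neither past the adjusted p. Both were called in all 11 alternatives. NODAL had -1.37 on day 2, -1.04 on day 3 and 0.10 on day 6, and the change from day 4 to day 6 did not pass (0.95, adjusted p = 0.0655).

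MIR205HG rose in both media, to 103 and 87.2 CPM in E8 and 44.6 and 50.6 CPM in N2B27, and its difference changed the other way, by -1.16 (adjusted p = 0.0394), a call lost when any 1 of the 4 day 4 libraries was left out, with values between -0.99 and -1.33. The streak genes MIXL1 (0.00) and TBXT (1.264, adjusted p = 0.133) and the low-oxygen gene PDK1 (-0.01) showed no change that passed.

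**Figure D5:**
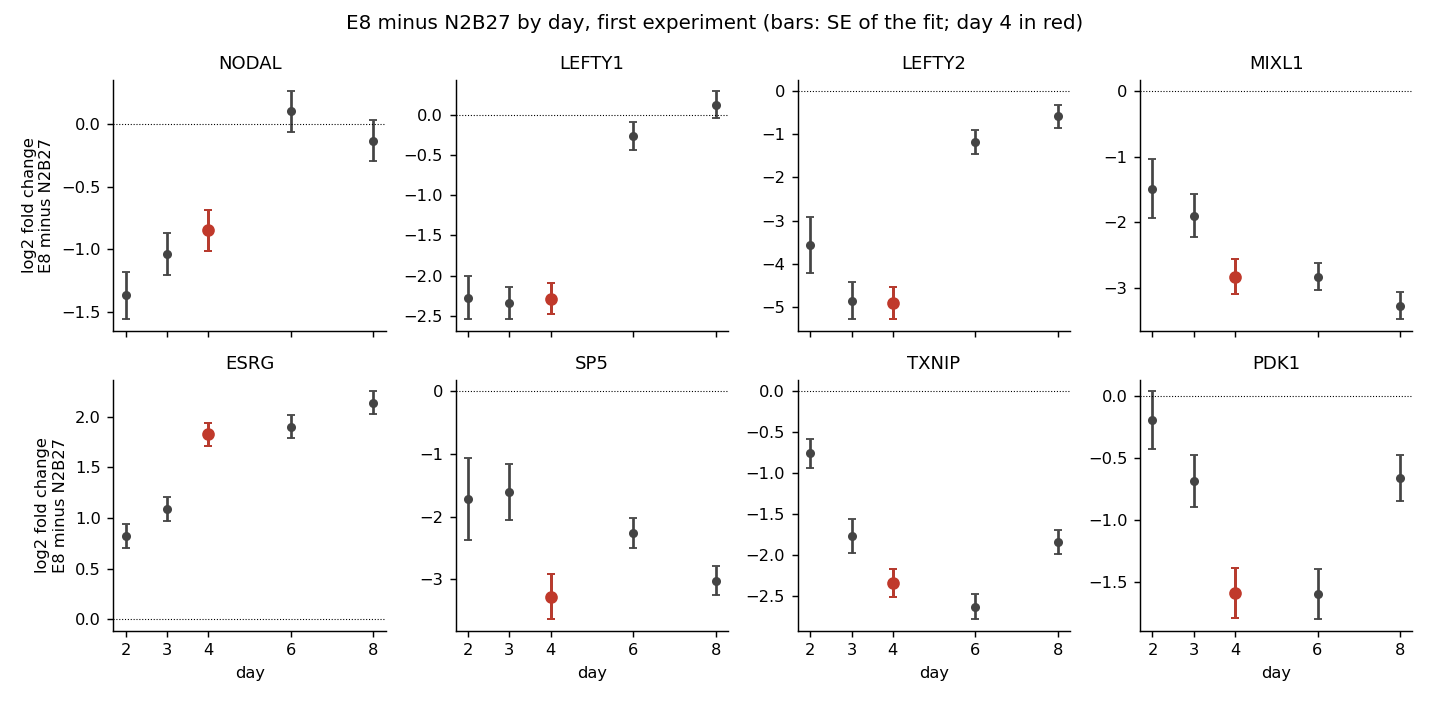
Points are the log2 fold change of E8 over N2B27 at days 2, 3, 4, 6 and 8 of the first experiment for 8 genes, with bars of 1 SE from the fit and day 4 in red. LEFTY1 and LEFTY2 stay low to day 4 and return towards 0 by day 6, MIXL1 and TXNIP stay below 0 to day 8, and ESRG stays above 0 throughout.

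The other media of day 4 set these values in context. mTeSR, the other commercial medium of the first experiment, also supplies FGF2 and TGFβ-type signals, and its comparison uses the same 2 N2B27 libraries, so its values are only placed beside those of E8. In mTeSR LEFTY2 was at 2.59 and 5.53 CPM, LEFTY1 at 40.9 and 43.3 CPM, MIXL1 at 6.12 and 9.90 CPM and PDK1 at 12.2 and 13.8 CPM, each nearer to E8 than to N2B27. A direct test of E8 against mTeSR separated some genes. ESRG was higher in E8 by 1.11 (adjusted p = 5.93e-07, mTeSR at 176.5 and 199 CPM), MT1E by 1.01 (adjusted p = 7.58e-06, mTeSR at 312 and 317.5 CPM), and TXNIP was lower by 1.45 (adjusted p = 1.06e-05, mTeSR at 47.3 and 34.3 CPM). LEFTY2 did not pass in that test (-1.15, adjusted p = 0.563).

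FAX, which is N2B27 with FGF2, Activin A and the tankyrase inhibitor XAV, was grown in the second experiment and shares no library with the first. LEFTY2 was at 161 and 155.5 CPM in FAX against 40.9 and 47.1 CPM in N2B27 of that experiment, a rise of 1.84 (SE 0.23, adjusted p = 7.47e-06), whereas E8 lay below its own N2B27. MIXL1 was at 32.6 and 33.8 CPM against 13.3 and 15.2 CPM (1.22, adjusted p = 0.00325). Set against N2B27 with XAV alone, which leaves FGF2 and Activin A as the difference, LEFTY2 was higher in FAX by 1.45 (adjusted p = 0.00298). MIXL1 had 0.65 (adjusted p = 0.814) and LEFTY1 0.36 (adjusted p = 0.878) in that comparison. Against N2B27 without XAV, LEFTY1 (0.58, adjusted p = 0.152), NODAL (0.36, adjusted p = 0.489) and TBXT (-0.42, adjusted p = 0.717) did not pass. Neither did SP5 (-0.98, adjusted p = 0.202) or ESRG (-0.20, adjusted p = 0.726). FAX and E8 were not grown in the same experiment, and the difference between their effects was not tested.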

How the data were processed

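RNA of 38 libraries of the Shef6 line was sequenced near the 3′ ends of transcripts (QuantSeq), and 4 libraries carry the comparison. The authors made estimated counts per gene with the nf-core rnaseq workflow on hg38 (the submitters' processing notes name Salmon 1.9.0 and STAR 2.7.10a) and deposited them as whole numbers for 57133 gene symbols, without normalisation. The analysis of these deposited counts used edgeR 4.0.16 under R 4.3.3. The function filterByExpr left 16674 genes with 99.7% of the counts. TMM scaling and 1 quasi-likelihood fit of 19 groups over all 38 libraries followed, so that every group of 2 shares the estimate of spread, and F-tests were adjusted by Benjamini-Hochberg over all genes tested. A gene was called at an adjusted p under 0.05 and an absolute log2 fold change above 1. SE were derived from F. The code was tested on simulated data.

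Named genes are members of 28 lists (533 genes, 481 tested), and the 15 largest rises and falls among called genes of at least 20 CPM without overlap. Others are said to be chosen later. A few genes that the rule names are not reported here. The members of the comparison and the lists were chosen with earlier results of these data known. Lists are described by counts and medians. CPM floors (3 counts) cover counting error only, since reads are not independent molecules. Gene positions are from GENCODE 44. Promoter windows come from RefSeq, which 38 of the 59 called genes among the named ones had. Alternatives were other scalings (RLE, library totals), filters, DESeq2 1.42.0, fewer libraries, a replicate block, leaving out each library, and other N2B27 references.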

Additional observations from a re-analysis of the deposited data

Results flagged for a closer look

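The difference between E8 and N2B27 changed from day 4 to day 6 for 30 genes by the test of that change itself, and for 11 to 21 when 1 library of day 4 was left out. On the log2 scale of the E8 minus N2B27 difference, the changes of genes in the lists or among those named were 3.74 for LEFTY2, 2.02 for LEFTY1, 1.28 for KLF4, 1.27 for BMP4, 1.25 for ACTC1 and 1.01 for CALD1 upwards, and -5.34 for BMP2, -1.98 for SFRP1, -1.16 for MIR205HG and -1.06 for HAS2 downwards.

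These genes are of different kinds. LEFTY1, LEFTY2, BMP2 and BMP4 are secreted factors of the TGFβ family, SFRP1 a secreted WNT antagonist, KLF4 a transcription factor of the naive state, ACTC1 and CALD1 an actin and an actin-binding protein, and HAS2 the synthase of hyaluronan. LEFTY1, LEFTY2 and BMP4 were called in all 11 alternatives, whereas BMP2, KLF4 and MIR205HG lost the call without any 1 of the 4 day 4 libraries, HAS2 without 3 of them, ACTC1 and CALD1 without 2 and SFRP1 without 1. BMP4 was at 61.0 CPM in E8 and 54.3 CPM in N2B27 at day 4 and at 214.5 and 79.4 CPM at day 6, as means of 2 libraries each. BMP2 was at 0.51 and 0.44 CPM at day 4, near the limit of 3 counts, and at 0.34 CPM in E8 and 13.4 CPM in N2B27 at day 6, so that its change depends on N2B27 at day 6. KLF4 stayed at 44.4 CPM in E8 at day 4 and 42.2 CPM at day 6, while N2B27 went from 26.7 to 10.4 CPM. CALD1 rose in E8 from 623 to 1428 CPM against 566 to 642 CPM in N2B27.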

How the results depend on the processing

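The count of 415 genes stayed within 1.5 times of its value under RLE scaling, plain library totals, both filters and with only the compared libraries, and moved to 256 with DESeq2, 1322 with no fold threshold, 257 with N2B27 of both experiments as the reference and 217 with that of the second experiment, a reference added after the data were seen. Leaving out 1 of the 4 libraries gave 196 to 333 genes, where the lone library is assumed to vary like the other groups. The 0 genes changing from day 3 to day 4 became 39 with no filter and 0 to 1 without a library, and the 30 changing from day 4 to day 6 became 100 with no filter, 128 with only the compared libraries and 11 to 21 without a library. The cause was not tested. Among single genes the sign turned for P4HA1 (0.25), DUSP6 (0.82) and AXIN2 (0.13) against second-experiment N2B27, for AXIN2 (0.0175) against both, and for SPRY4 (-0.0362, 0.323 without replicate 2) and AXIN2 (0.0348, -0.193 without replicate 2) without replicate 1 of E8.

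Same-numbered libraries did not deviate together (correlation of their deviations 0.0175 over 2 pairs), so the numbers do not pair them. With a replicate block 397 genes were called at day 4, of which 395 were among the 415, 0 from day 3 to day 4 and 31 from day 4 to day 6, and no call of a gene named here changed. At 4794336 to 5612354 counts per library, genes under 20 CPM make up 308 of the 415 calls and their sizes are less certain.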

Other observations

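Genes outside the groups above also differed at day 4. CDKN1C, an imprinted inhibitor of cyclin-dependent kinases, stood at 59.9 and 55.0 CPM in E8 and at 20.5 and 21.3 CPM in N2B27 (log2 fold change 1.46, SE 0.17, adjusted p = 6.88e-07), and was the 1 gene called of the 22 of the cell cycle list, whose median was -0.05. ACTA1, an α-actin of muscle, stood at 72.9 and 74.7 CPM against 33.5 and 34.2 CPM (1.13, adjusted p = 0.000114), as the 1 gene called of 23 actin and YAP genes. Neither gene overlapped between the media. Against second-experiment N2B27 CDKN1C had 0.83 (adjusted p = 0.00297) and ACTA1 0.12 (adjusted p = 0.798).

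Genes of sterol synthesis were the reverse of the low-oxygen genes in their dependence on the reference. HMGCS1, the synthase at the start of the pathway, stood at 417 and 429 CPM in E8 and at 619 and 541 CPM in N2B27 of the first experiment (-0.46, adjusted p = 0.0051), and against the second experiment its value was -1.05 (adjusted p = 5.36e-08). The median of the 24 genes was 0.03 with the first reference and -0.56 with the second, where 21 were negative and 3 were called lower. Of the first comparison 1 was called, TM7SF2, a sterol reductase at 2.51 and 2.37 CPM against 4.51 and 6.27 CPM, a call that was lost with DESeq2, with no filter on low counts, without either replicate of E8 and without replicate 2 of N2B27, with values between -0.87 and -1.17, while against the second experiment it was called at -1.72 (adjusted p = 0.0011). No gene of the fatty acid, ATF4, NRF2, iron and selenium, adhesion or hypoblast lists was called with the first reference. The BMP response list had 1 gene called in each direction of 16, the trophectoderm or amnion list 1 lower of 16, and the hormone and p53 lists 1 higher of 13 and of 16, with medians of -0.02, -0.23, 0.02 and 0.06. Over all genes 1.36% were called higher and 1.13% lower, and each of these 5 calls (ID4, HEY1, ENPEP, DIO3 and TP53INP1) was lost when at least 1 single library was left out.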
